A study of Mus musculus with 6 samples.

Results

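The collagen genes of the mouse lateral septum were taken as every gene whose symbol reads Col, a number, the letter a and a number, which gave 44 of the 35415 genes with deposited values. They encode the alpha chains of the collagen family and were sorted by the kind of assembly their chains form: 11 fibrillar genes, 6 of basement membrane networks, 6 of beaded filaments, 9 fibril-associated genes, 4 transmembrane genes, 3 of short-chain networks, 2 multiplexins, the anchoring fibril gene Col7a1 with its class neighbour Col28a1, and Col26a1. The rule reads symbols and no measured value.

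RNA came from the lateral septum, a forebrain region below the corpus callosum, of wild-type (WT) female C57BL/6 mice that entered the study at 8 weeks of age and acclimated for 1 week. The olanzapine group received the antipsychotic at 50 mg per kg of chow for 12 weeks, and the control group received plain chow for the same time. Each group was sequenced as 3 libraries, and each library was a pool of 3 mice, so the spread between single animals is hidden and the p-values measure the spread between pools. Olanzapine libraries bear a short name for metabolic syndrome in the deposited columns.

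Total counts ran from 38208153 to 39868872 per library, and replicate libraries differed by more than sampling noise. The 10 lateral septum neuron markers summed to between 77954 and 119905 normalized counts, and none of them was listed at 0. In control pool 1, where the sum was 119905, Gad1, Gad2 and Slc32a1 held 32507, 34192 and 16793. These 3 are genes of GABA neurons in general, so the sum is not a measure of septal neurons alone. Markers of other tissue were found as well. The 6 striatal projection neuron markers summed to 38634, 66178 and 49673 in control pools and 39704, 79799 and 77420 in olanzapine pools. The summed level of 10 choroid plexus markers differed 109.1-fold between the pools, from 2735 in olanzapine pool 3 to 298370 in control pool 3. Ttr alone gave 267329 of the 298370. Between the same pools single members varied less, such as Otx2 from 354.9 to 1317, or more, such as Kcnj13 from 6.032 to 4295. In olanzapine pool 1, 8 markers of cortical glutamatergic neurons summed to 41046, against 5381 to 8308 elsewhere. Slc17a7 gave 25735 of the 41046. Rasgrf2 went the other way, with 6324 of the 8308 in control pool 1 and 5326 in olanzapine pool 1. The 10 hepatocyte markers summed to 451.1 to 798.7 in the control pools and 9410 to 11706 in the olanzapine pools. In edgeR 10 of 10 were called higher, where the background was 1.83% of all tested genes. Long noncoding RNAs that stay in the nucleus, such as Meg3, were above every control pool in 7 of 7 cases (background 13.3%). Of these RNAs, 5 were called higher (background 1.83%). The results below that move with one of these lists are given beside its values.

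Collagens are secreted or membrane-bound proteins in which 3 alpha chains wind into a triple helix built from a repeat with glycine at regular steps. In the adult brain fibrillar collagens are made mainly by fibroblasts of the meninges and larger vessels, basement membrane collagens by vascular cells, and some transmembrane and fibril-associated collagens by neurons. Newly made chains are hydroxylated and folded in the endoplasmic reticulum, trimmed outside the cell and cross-linked, and they are read by integrins and discoidin domain receptors.

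Some collagen genes share a promoter with a neighbour, which bears on the chain pairs described further on, so promoter windows from RefSeq (GRCm38.p6, 250 bases before to 50 after the annotated start) are shown first for genes on which the results turn. Capitals mark matches to the GC box GGGCGG, the CCAAT box CCAAT or the TATA box TATAAA on either strand. Col4a1 (chr8:11312777-11313076, minus strand) and Col4a2 (chr8:11312555-11312854, plus strand) lie head to head, with starts 21 bases apart in GENCODE M21, and their windows overlap.
Col4a1: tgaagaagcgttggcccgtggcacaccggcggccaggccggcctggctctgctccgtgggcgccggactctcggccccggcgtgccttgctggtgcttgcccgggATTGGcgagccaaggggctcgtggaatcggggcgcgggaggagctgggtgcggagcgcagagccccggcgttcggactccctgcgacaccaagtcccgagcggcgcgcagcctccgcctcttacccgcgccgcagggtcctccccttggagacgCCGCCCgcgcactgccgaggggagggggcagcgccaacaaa
Col4a2: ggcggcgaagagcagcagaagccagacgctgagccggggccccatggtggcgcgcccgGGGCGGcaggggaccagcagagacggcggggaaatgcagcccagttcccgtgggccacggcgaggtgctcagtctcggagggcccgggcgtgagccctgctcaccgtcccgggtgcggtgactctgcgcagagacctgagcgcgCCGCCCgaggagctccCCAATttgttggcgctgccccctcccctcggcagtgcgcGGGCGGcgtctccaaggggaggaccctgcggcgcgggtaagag
Col4a4 (chr1:82586800-82587099, minus strand) shows the same arrangement with Col4a3, whose start lies 72 bases away inside this window, and none of the 3 motifs was found in it.
Col4a4: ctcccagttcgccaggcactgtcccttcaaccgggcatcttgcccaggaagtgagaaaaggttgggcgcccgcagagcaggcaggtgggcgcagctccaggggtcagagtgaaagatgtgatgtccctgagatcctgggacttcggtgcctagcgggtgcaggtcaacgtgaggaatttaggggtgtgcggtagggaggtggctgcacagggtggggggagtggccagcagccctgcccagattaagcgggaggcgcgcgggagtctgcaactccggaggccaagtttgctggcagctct
Col11a2 (chr17:34038888-34039187, plus strand), Col16a1 (chr4:130047590-130047889, plus strand) and Col7a1 (chr9:108953336-108953635, plus strand) are the 3 collagen genes called higher after olanzapine. The RefSeq start of Col11a2 lies upstream of the GENCODE M21 gene, which runs from 34039437 to 34066685 on chromosome 17.
Col11a2: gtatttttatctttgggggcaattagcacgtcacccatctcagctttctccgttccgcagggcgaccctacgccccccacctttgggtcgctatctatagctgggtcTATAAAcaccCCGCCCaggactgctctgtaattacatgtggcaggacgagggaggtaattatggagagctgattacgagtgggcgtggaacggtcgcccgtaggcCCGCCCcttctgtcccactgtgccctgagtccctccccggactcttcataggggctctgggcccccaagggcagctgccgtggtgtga
Col16a1: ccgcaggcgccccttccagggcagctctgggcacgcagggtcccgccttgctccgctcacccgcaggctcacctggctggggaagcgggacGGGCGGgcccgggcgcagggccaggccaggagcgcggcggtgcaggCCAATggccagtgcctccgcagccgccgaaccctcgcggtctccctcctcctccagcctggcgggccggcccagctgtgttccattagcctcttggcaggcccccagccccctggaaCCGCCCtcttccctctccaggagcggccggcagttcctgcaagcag
Col7a1: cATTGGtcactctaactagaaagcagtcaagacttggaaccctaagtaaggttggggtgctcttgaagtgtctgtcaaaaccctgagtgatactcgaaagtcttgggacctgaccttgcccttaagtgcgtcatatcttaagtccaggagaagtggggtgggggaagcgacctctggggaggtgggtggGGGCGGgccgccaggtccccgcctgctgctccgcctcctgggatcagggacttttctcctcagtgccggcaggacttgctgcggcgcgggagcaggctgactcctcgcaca
Col8a1 (chr16:57754688-57754987, minus strand) is the collagen gene whose 6 pools lay in the same order as the choroid plexus markers, and its window holds 4 GC boxes.
Col8a1: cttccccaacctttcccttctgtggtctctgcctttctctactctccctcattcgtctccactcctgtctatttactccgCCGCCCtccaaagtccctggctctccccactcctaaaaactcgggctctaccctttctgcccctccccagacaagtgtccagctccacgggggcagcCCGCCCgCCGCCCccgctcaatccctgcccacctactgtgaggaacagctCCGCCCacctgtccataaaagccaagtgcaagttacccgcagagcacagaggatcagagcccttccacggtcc
RefSeq windows were at hand for 35 of the collagen genes, as 38 windows. The GC box was found in 60.5% of them and in 35.7% of all 32851 windows, the CCAAT box in 34.2% against 37.4%, and the TATA box in 13.2% against 13.6%, with a window counted once for each motif however many matches it held. These are matches of letters and say nothing of a factor bound there.

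Collagen levels in the septum differed widely. On the FPKM scale, which corrects for gene length, 3 of the 44 genes had a mean of 10 or more over the 6 pools, 15 lay between 1 and 10, 20 between 0.1 and 1, and 6 under 0.1. Col25a1, a transmembrane collagen of neurons whose shed part is known from amyloid plaques, was the highest at a mean of 14.8 FPKM. Col9a3, a chain of the cartilage collagen IX, followed at 11.9 FPKM, and Col6a1, a chain of the beaded filaments around cells, at 10.2 FPKM. The pools of these genes overlapped in FPKM, so their order is not firm. In the olanzapine pools alone the mean of Col6a1, 13.98 FPKM, was above the 12.06 FPKM of Col25a1. Col10a1, the collagen of growth plate chondrocytes, was the lowest, with 8, 0 and 6 reads in control pools and 0, 0 and 1 in olanzapine pools; it was too low to test and lies inside Nt5dc1 on the other strand. Summed over all collagens, FPKM came to 64.9, 79.0 and 89.7 in control pools and 82.7, 95.6 and 74.7 in olanzapine pools, and these ranges overlap.

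**Figure D1:**
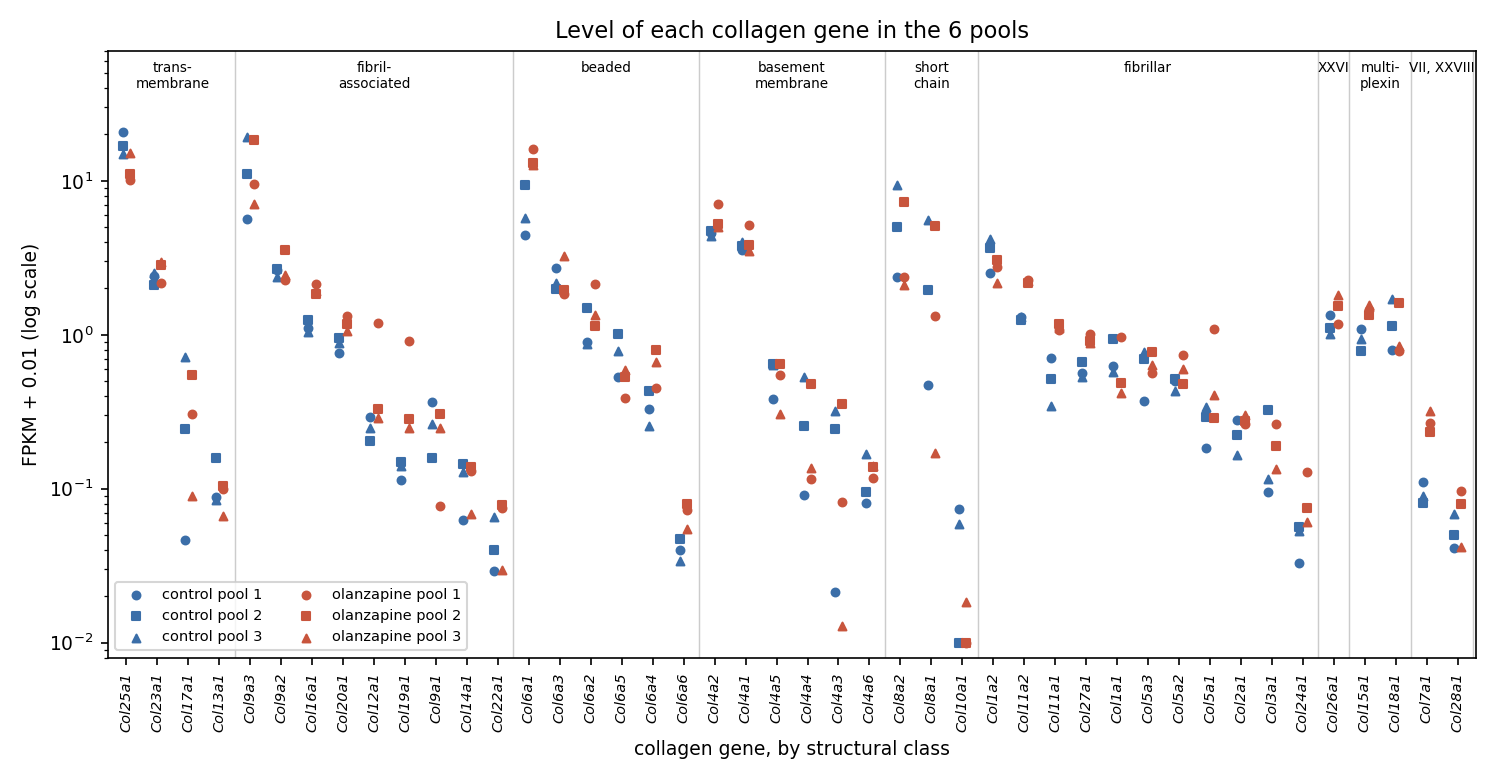
FPKM + 0.01 on a log axis for the 44 collagen genes, grouped by structural class, with 1 point for each pool (control in blue, olanzapine in red; circle, square and triangle for pools 1, 2 and 3). Col25a1, Col9a3 and Col6a1 have the highest means, and the points of Col4a3, Col8a1 and Col17a1 are spread far more widely than those of Col4a1 or Col11a2.

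To ask which collagens differed after olanzapine, the counts of all genes were fitted together and 43 collagen genes passed the filter on low counts. Of these, 3 were called higher by edgeR's quasi-likelihood test at a Benjamini-Hochberg adjusted p under 0.05, or 6.98%, where the background was 1.83% of 17255 genes. None was called lower, where the background was 0.493%. The genes called higher were Col11a2, Col16a1 and Col7a1, and Col7a1 was the 1 gene that also passed a 2-fold limit, against a background of 0.95%. At an unadjusted p under 0.05 there were 12 higher and 2 lower collagen genes, against backgrounds of 9.19% and 8.4%. By DESeq2, 9 were called higher and 1 lower, against backgrounds of 3.45% and 2.47%. Beyond the 3 genes called by edgeR, DESeq2 called Col11a1, Col15a1, Col19a1, Col27a1, Col6a1 and Col6a4 higher (adjusted p from 0.000144 to 0.0494) and Col25a1 lower. In bulk RNA a gain in cells of a type and a gain in RNA per cell cannot be told apart.

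The order of the pools showed the same lean. In 13 of the 43 tested genes, or 30.2%, all 3 olanzapine pools lay above all 3 control pools, where the background was 13.3%. The reverse order was seen in 0 collagen genes, where the background was 11.0%. Taking both directions together, 30.2% of the tested collagens and 24.3% of all tested genes were free of overlap, and without control pool 3 and olanzapine pool 2 these shares were 45.2% and 45.6%, with 16 collagens above and 3 below. The fitted difference was positive in 28 genes and negative in 15, and its median was 0.20 on the log2 scale, where the median of all tested genes was 0.0039. In the 30 genes that were neither called nor free of overlap, 15 differences were positive and 15 negative, from -0.67 for Col6a5 to 1.31 for Col12a1. Nuclear long noncoding RNAs moved with these genes: their 7 members summed to between 88662 and 110065 normalized counts in the control pools and between 198484 and 240457 in the olanzapine pools. Their part in the result was not tested, and neither was that of the hepatocyte markers.

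**Figure D2:**
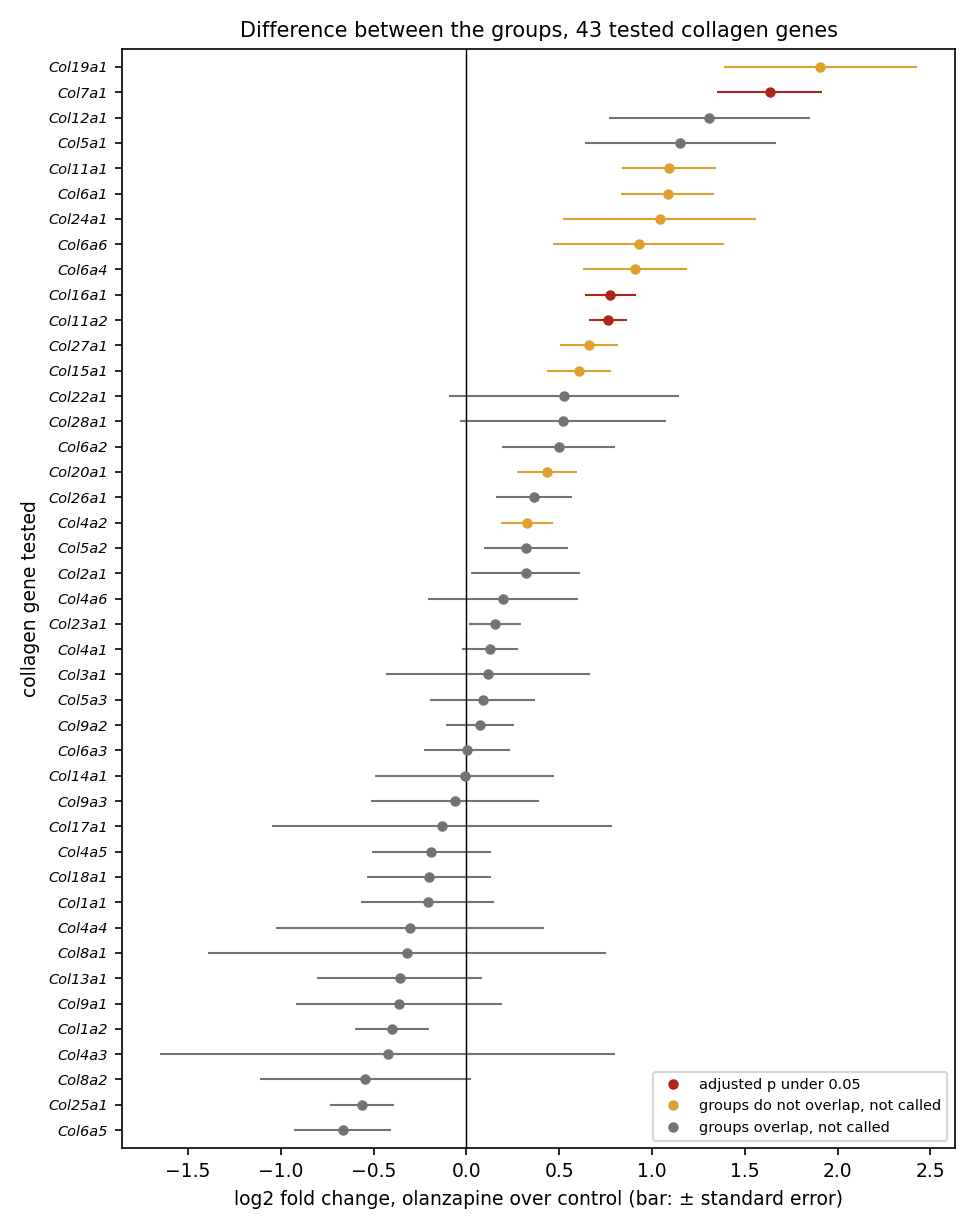
Log2 fold change, olanzapine over control, with its standard error for the 43 tested collagen genes, sorted by size. The 3 called genes are red, the other 10 genes whose groups do not overlap are orange, and all 13 lie to the right of 0.

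Col11a2 gave the most even separation. This gene encodes a chain of collagen XI, a minor fibrillar collagen that limits the width of cartilage fibrils. Its 3 control pools held 398, 378 and 392 normalized counts and its olanzapine pools 688, 626 and 668. The mean rose from 389 ± 10.01 to 661 ± 31.6 (SD, n = 3 pools each). The log2 fold change was 0.76 (SE 0.10, edgeR adjusted p = 0.0107), and it stayed between 0.73 and 0.80 when any 1 pool was left out. The call was lost without control pool 2 (adjusted p = 0.0623 by edgeR) and without olanzapine pool 3 (adjusted p = 0.0537 by edgeR).

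Col16a1 encodes the single chain of collagen XVI, which sits at the surface of fibrils and fibrillin filaments. The control pools held 279, 312 and 257 normalized counts and the olanzapine pools 535, 442 and 474, with no overlap. Its mean rose from 282 ± 27.8 to 484 ± 47.0 (SD, n = 3 pools each), a log2 fold change of 0.78 (SE 0.14, edgeR adjusted p = 0.0299). Leaving out 1 pool moved the log2 fold change between 0.70 and 0.86, and the call held only without olanzapine pool 1; without any of the other 5 pools the edgeR adjusted p lay between 0.0678 and 0.122.

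Col7a1 encodes the chain of the anchoring fibrils that tie basement membrane to the tissue below, best known from skin. It was a low gene, at 37.0, 25.7 and 28.7 normalized counts in the control pools, and it rose to 94.8, 78.0 and 112 in the olanzapine pools. The means were 30.5 ± 5.84 and 94.8 ± 16.8 (SD, n = 3 pools each). The log2 fold change was 1.63 (SE 0.28, edgeR adjusted p = 0.0286), or 3.10-fold. As for Col16a1, the call held without olanzapine pool 1 but not without any 1 of the other pools, where the edgeR adjusted p lay between 0.0605 and 0.123. It was also lost with limma on log2(FPKM + 1) (adjusted p = 0.141) and on log2(FPKM + 0.1) (adjusted p = 0.119), scales on which the fold of so low a gene is understated. Without control pool 3 and olanzapine pool 2 together, the pools richest in choroid plexus markers of their groups, none of the 3 genes was called, with log2 fold changes of 0.81, 0.77 and 1.72 for Col11a2, Col16a1 and Col7a1.

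**Figure D3:**
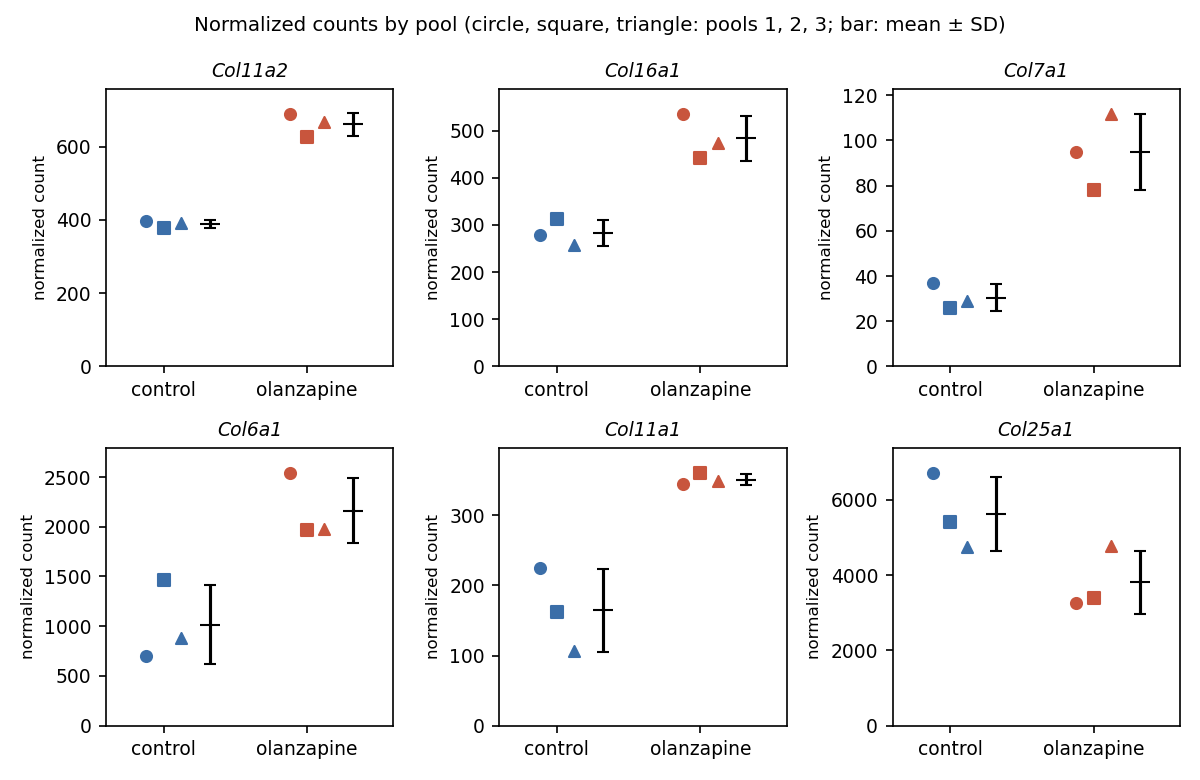
Normalized counts in each pool for the 3 called genes, for Col6a1 and Col11a1, whose groups also do not overlap, and for Col25a1, the collagen gene with the highest FPKM. Symbols mark pools 1 to 3, the bar gives mean ± SD and each axis starts at 0; the olanzapine pools lie above the control pools in the first 5 panels and lie partly below them for Col25a1.

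Among the 11 fibrillar genes, 9 differences were positive, 1 gene was called (9.09%, background 1.83%) and 4 genes were free of overlap with olanzapine above control (36.4%, background 13.3%). DESeq2 also called Col11a1 and Col27a1 of this class. Col11a1, the partner chain of Col11a2, held 225, 162 and 106 normalized counts in control pools and 344, 359.5 and 349 after olanzapine. The 3 olanzapine pools were nearly equal while the control pools spread out, and the log2 fold change of 1.09 (SE 0.25) missed the threshold (edgeR adjusted p = 0.0731). Col27a1, a fibrillar collagen of cartilage, stood at 187, 218 and 174 against 337, 289 and 288.5. That difference of 0.66 on the log2 scale (SE 0.16) did not pass either (edgeR adjusted p = 0.0798).

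The chains of collagen I, the main fibril of skin, bone and meninges, did not share this direction. Col1a2, the highest fibrillar gene at 3.04 FPKM, held 519.6, 749 and 849.6 normalized counts in control pools and 566, 603.5 and 436 in olanzapine pools, a log2 difference of -0.40 (SE 0.20, edgeR adjusted p = 0.343). Col1a1 held 146, 215 and 131 against 225, 107 and 94.5, a log2 difference of -0.21 (SE 0.36, edgeR adjusted p = 0.814). Both pairs of groups overlapped. Col1a2 was 2.86 to 7.37 times as high as Col1a1 in FPKM, with control and olanzapine pools mixed in that range. Markers of the fibroblasts that make collagen I were led by Pdgfra, which cells of the oligodendrocyte lineage also express. The other 11 fibroblast markers summed to 566.5, 834 and 641 normalized counts in the control pools and 1008, 519.6 and 358 after olanzapine, highest in olanzapine pool 1 and overlapping between the groups. In edgeR 0 of the 12 were called, with Pdgfra alone lower at an unadjusted p under 0.05 (background 8.4%). The part of the fibroblast markers in these levels was not tested. Among the other fibrillar genes, Col2a1 of cartilage, Col3a1 of vessel walls, and Col5a2 and Col5a3 of thin fibrils had log2 differences between 0.088 and 0.32, and none was called.

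The 9 fibril-associated genes, whose chains decorate fibrils, held 6 positive differences, 1 gene called by edgeR (Col16a1, or 11.1%, background 1.83%) and 3 genes free of overlap with olanzapine above control (33.3%, background 13.3%). Col20a1 was free of overlap by a smaller margin, at 191, 234 and 215 normalized counts in control pools and 329.8, 277 and 257 in olanzapine pools, a log2 difference of 0.43 (SE 0.16, edgeR adjusted p = 0.218). Col9a1, Col9a2, Col14a1 and Col22a1 had log2 differences between -0.36 and 0.53 with overlapping groups, and Col9a3 is described with the choroid plexus markers.

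Beaded filaments of collagen VI surround many kinds of cell, and the class had the second highest median difference, 0.70 on the log2 scale over 6 genes. Col6a1 held 700.4, 1468 and 883 normalized counts in control pools and 2536, 1965 and 1977 in olanzapine pools. The lowest olanzapine pool lay above the highest control pool, yet the control pools spread out and the log2 fold change of 1.09 (SE 0.25) missed the threshold (edgeR adjusted p = 0.0733). It was called without control pool 2 (log2 fold change 1.45, edgeR adjusted p = 0.0215), with no count filter (edgeR adjusted p = 0.0334) and by DESeq2 (adjusted p = 0.000144).

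The other collagen VI chains did not all share this pattern. Col6a2, which assembles with Col6a1 and Col6a3, held 213, 349.5 and 202 in control pools and 509, 257 and 314 in olanzapine pools, and the groups overlapped (log2 difference 0.50, SE 0.30, edgeR adjusted p = 0.442). The ratio of Col6a1 to Col6a2 in FPKM was 4.98, 6.35 and 6.61 in control pools and 7.54, 11.6 and 9.53 in olanzapine pools, with no overlap. A two-sided exact permutation test of the log2 ratio gave p = 0.1, the smallest it can give with 3 pools against 3. That value is fixed once the groups do not overlap, so it adds nothing to the order. No other chain pair was tested. Col6a3 held 1178, 843 and 922 against 782, 796 and 1370, a log2 difference of 0.0028 (SE 0.23). Col6a4 held 99.9, 129 and 74.4 against 136, 233 and 201 (log2 difference 0.91, SE 0.28, edgeR adjusted p = 0.152), free of overlap. Col6a6, a low gene of the same chromosome 9 cluster, held 8.99, 10.9 and 6.94 against 18.5, 19.8 and 13.1 (log2 difference 0.93, SE 0.46, edgeR adjusted p = 0.342). Col6a5, between them on the chromosome, had the most negative difference of the 43 tested collagens at -0.67 (SE 0.26, edgeR adjusted p = 0.240).

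Basement membrane genes had a median difference of -0.030 on the log2 scale over 6 genes, with 3 positive and 3 negative. In edgeR 0 of them were called, where the backgrounds were 1.83% higher and 0.493% lower. At an unadjusted p under 0.05, 1 was higher and 0 were lower, against backgrounds of 9.19% and 8.4%. Col4a1 and Col4a2 encode the chains of the collagen IV found in nearly every basement membrane and are transcribed away from the shared promoter printed above. Col4a2 held 1170, 1189 and 1104 normalized counts in control pools and 1801, 1283 and 1259 in olanzapine pools, free of overlap but with 1 high pool (log2 difference 0.33, SE 0.14, edgeR adjusted p = 0.277). Col4a1 held 939, 980.3 and 1026 against 1358, 960.1 and 902, where the groups overlapped (log2 difference 0.13, SE 0.15, edgeR adjusted p = 0.717). Both genes were highest in olanzapine pool 1. Their FPKM ratio, Col4a2 over Col4a1, was 1.28, 1.24 and 1.104 in control pools and 1.36, 1.37 and 1.43 in olanzapine pools. These ratios did not overlap between the groups and were not tested. Endothelial markers, a list of 11 genes of cells that make collagen IV, had 11 negative differences, and their sum was 13536 to 14433 in the control pools and 9080 to 13810 in the olanzapine pools. In edgeR 0 of the 11 were called, and 3 were lower at an unadjusted p under 0.05, where the background was 8.4%. The part of these markers in the collagen IV levels was not tested. Col4a5 and Col4a6, another head-to-head pair, on the X chromosome, had log2 differences of -0.19 and 0.20 and overlapping groups.

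A set of collagens varied more between pools than between groups. In 8 of the 43 tested genes the highest pools were control pool 3 and olanzapine pool 2, the pair richest in choroid plexus markers, where the background was 8.72% of all tested genes. They were Col8a1, Col8a2, Col9a3, Col4a3, Col4a4, Col17a1, Col18a1 and Col5a3. Col8a1 had all 6 pools in the order of the choroid plexus markers, an order held by 0.672% of all tested genes. Col8a1 and Col8a2 encode the short chains of the hexagonal network under the corneal endothelium.

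Col8a1 held 93.9, 389.9 and 1105 normalized counts in control pools and 265, 977 and 32.2 in olanzapine pools. Its highest pool was 34.4 times its lowest, and the highest pool of each group was far above the other 2. The log2 difference between the groups, -0.32 (SE 1.07), became 0.83 without control pool 3 and -1.84 without olanzapine pool 2, and none of these was called. Col8a2 held 421, 875 and 1639 against 419, 1226 and 364. Col9a3, counted on a locus that overlaps Tcfl5 on the other strand, held 696, 1337 and 2333 against 1174, 2159 and 847.5. The choroid plexus marker sum over the same pools was 4187, 107633 and 298370 against 46268, 187610 and 2735.

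Col4a3 and Col4a4, chains of the collagen IV of the kidney filter that share the window printed above, belonged to the same set. Col4a3 held 3.997, 81.9 and 108 normalized counts in control pools and 25.8, 118 and 1.01 in olanzapine pools, and its level in olanzapine pool 3 rests on 1 read. Col4a4 held 33.97, 103 and 216 against 44.3, 189 and 52.3, a 6.36-fold range. In the 4 pools other than control pool 1 and olanzapine pool 3, Col4a4 was 1.06 to 1.69 times as high as Col4a3 in FPKM; those remaining pools, the poorest in choroid plexus markers, held 4 and 1 reads of Col4a3, too few for a ratio. Col17a1, a transmembrane collagen of hemidesmosomes, ranged from 7.99 to 153 over the pools. Col18a1, the source of endostatin, ranged from 222 to 478, and Col5a3 from 87.9 to 182. The part of choroid plexus tissue in these levels was not tested beyond this order, and none of the 8 genes was called between the groups.

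**Figure D4:**
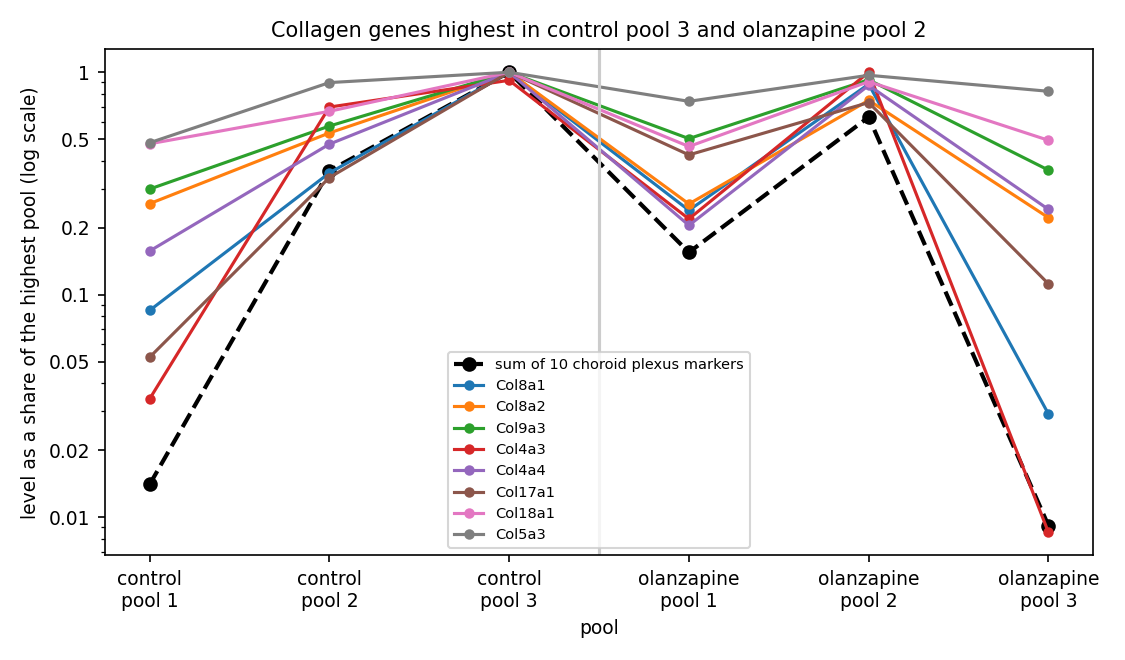
Level in each pool as a share of the highest pool, on a log axis, for the 8 collagen genes highest in control pool 3 and olanzapine pool 2 (colours) and for the sum of 10 choroid plexus markers (black, dashed). Lines join the pools only to guide the eye; the curves rise and fall together, steeply for Col8a1 and Col4a3, whose lowest point is 1 read, and shallowly for Col5a3 and Col18a1.

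Another set stood out in 1 library. Olanzapine pool 1 was the highest pool for 15 of the 43 tested genes, or 34.9%, and for 22.8% of all tested genes. In 4 of them it was over 1.5 times the next pool, where the background was 2.83%: Col12a1, Col19a1, Col5a1 and Col24a1. Col19a1, a fibril-associated collagen made in the brain by some interneurons, held 55.0, 73.1 and 67.4 normalized counts in control pools and 475, 137 and 123 in olanzapine pools. Each olanzapine pool lay above every control pool, with a log2 difference of 1.91 (SE 0.52, edgeR adjusted p = 0.115) that was 0.99 without olanzapine pool 1.

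Col12a1, a fibril-associated collagen of tendon and dense tissue, held 158, 108 and 132 in control pools and 661, 171 and 154 in olanzapine pools, and its log2 difference of 1.31 was 0.29 without olanzapine pool 1. Col5a1, which starts thin fibrils, held 58.9, 94.8 and 109 against 366, 88.9 and 131, and its difference of 1.15 was 0.32 without that pool. Col24a1, a low fibrillar gene, held 6.99, 13.8 and 12.9 against 36.1, 18.8 and 15.1, and its difference of 1.04 was 0.58 without that pool. In edgeR none of the 4 genes was called with or without that pool, and DESeq2 called Col19a1 with all pools (adjusted p = 0.00147). Cortical glutamatergic neuron markers were at 41046 in olanzapine pool 1 and at 5381 and 5598 in the other olanzapine pools. By the rule used for the choroid plexus set, 0 tested collagens had the cortical list's 2 highest pools (background 7.81%), and 0 had its full order (background 0.313%). The 11 fibroblast markers given above were also highest in olanzapine pool 1, at 1008 against 358 to 834. The part of either list in these levels was not tested. The calls for Col11a2, Col16a1 and Col7a1 stood without that pool.

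**Figure D5:**
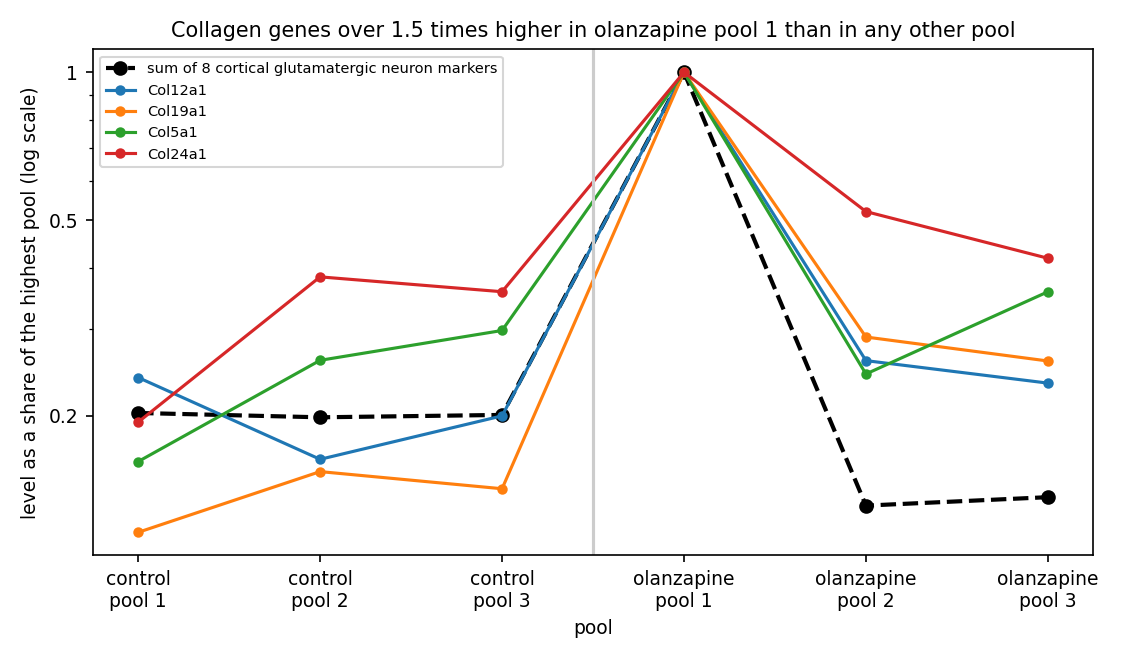
Level in each pool as a share of the highest pool, on a log axis, for Col12a1, Col19a1, Col5a1 and Col24a1 (colours) and for the sum of 8 cortical glutamatergic neuron markers (black, dashed). Each is highest in olanzapine pool 1, and only Col19a1 and Col24a1 keep the other olanzapine pools above all control pools.

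The transmembrane class was led by Col25a1. It held 6704, 5411 and 4761 normalized counts in control pools and 3271, 3381 and 4783 in olanzapine pools. Olanzapine pools 1 and 2 lay below every control pool and olanzapine pool 3 lay just above control pool 3. The log2 difference was -0.56 (SE 0.17, edgeR adjusted p = 0.152), and DESeq2 was the 1 alternative that called it lower (adjusted p = 0.0191). As a share of all collagen FPKM, Col25a1 made up 31.8%, 21.4% and 16.7% of the control pools and 12.3%, 11.5% and 20.2% of the olanzapine pools. Septal neuron markers, mostly Gad1, Gad2 and Slc32a1, summed to 119905, 102678 and 94446 in control pools and 77954, 88343 and 103772 in olanzapine pools. Their part in this result was not tested. Both orders placed control pool 1 first and olanzapine pool 1 last. Col23a1 and Col13a1, transmembrane genes as well, had log2 differences of 0.16 and -0.36 and overlapping groups, and the class also holds Col17a1, at -0.13.

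The remaining classes were small. Col15a1, a multiplexin of vessel and muscle basement membranes, held 228, 162 and 194 normalized counts in control pools and 302, 267 and 321 in olanzapine pools, free of overlap (log2 difference 0.61, SE 0.17, edgeR adjusted p = 0.129). Col26a1, which fits none of the classes, held 212, 172 and 158 against 185.5, 231 and 280.5 with overlapping groups (log2 difference 0.37, SE 0.21, edgeR adjusted p = 0.403). Col28a1 was at 19.6 normalized counts or less in every pool (log2 difference 0.52, SE 0.55).

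The classes differ in gene structure, which the symbols did not select on. In GENCODE M21 the fibrillar genes had 21 to 33 coding exons of exactly 54 bases, the length of 6 glycine triplets, and an unbroken glycine repeat of 216 to 344 triplets. No other class had a repeat above 113 triplets, and the short-chain genes had 0 such exons. Among the called genes, Col7a1 had 119 exons in 31.3 kb, Col11a2 66 exons in 27.2 kb and Col16a1 70 exons in 51.4 kb. Other genes free of overlap were long, such as Col19a1 at 326 kb and Col24a1 at 259.5 kb, and across the 43 tested genes, which are not independent, the Spearman rho with log2 fold change was 0.11 for gene span, 0.21 for spliced length and 0.35 for exon number. Antisense genes overlap, among others, Col6a4, Col15a1, Col24a1, Col12a1, Col4a1 and Col4a2, and the strand setting of the counting is not given in the sources used here, so reads of those partners cannot be told apart.

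Genes that make, cut, bind and surround collagens were examined as 5 lists with 81 genes, of which 73 passed the filter. In edgeR 0 of the 73 were called, and at an unadjusted p under 0.05 there were 3 higher and 17 lower, against backgrounds of 9.19% and 8.4%. DESeq2 called 2 higher and 5 lower, against backgrounds of 3.45% and 2.47%. Their differences leaned the other way from the collagens, with 16 positive and 57 negative and a median of -0.21 on the log2 scale. In 3 of them, or 4.11%, the olanzapine pools lay above all control pools and in 17, or 23.3%, below, against the backgrounds of 13.3% and 11.0%. Several lists of cell type markers leaned the same way: differences were negative for 11 of 11 endothelial, 8 of 10 pericyte and smooth muscle, 7 of 7 ependymal and 5 of 6 astrocyte markers. Negative differences were also held by 10 of 10 choroid plexus, 8 of 10 lateral septum neuron and 8 of 12 fibroblast markers. For the oligodendrocyte lineage 5 of 9 were negative, and for microglia 1 of 6. Positive differences were held by 6 of 6 striatal, 7 of 8 cortical and 10 of 10 hepatocyte markers. In edgeR 0 of the endothelial, pericyte, ependymal and astrocyte markers were called, with 3, 3, 2 and 3 lower at an unadjusted p under 0.05, and their part in the partner genes' lean was not tested.

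The 20 folding and modification genes were the most even list, with 9 positive and 11 negative differences and a median of -0.029. Ppib, a proline isomerase of the endoplasmic reticulum and the highest of them in mean FPKM, held 2544 to 3116 normalized counts in the control pools and 3012 to 3515 in the olanzapine pools (log2 difference 0.18, SE 0.097, edgeR adjusted p = 0.382). P3h3, a collagen prolyl 3-hydroxylase singled out after its values were seen, held 468, 494 and 476 against 771, 682.5 and 631 and lay just outside the threshold (log2 difference 0.54, SE 0.11, edgeR adjusted p = 0.0520), and it was called higher by DESeq2, with upper-quartile scaling, with total counts only, at a mean count of at least 50 and with limma at both pseudocounts under the filter. Of 10 tested genes for processing and cross-linking, 8 had negative differences, with a median of -0.47. Pcolce, which speeds the trimming of procollagen, had their highest mean FPKM, at 7.53 close to the 7.39 of Pcolce2, and was unevenly spread over the pools. It held 104, 448 and 1023 against 319.5, 736 and 67.4, in the order of the choroid plexus markers.

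Collagen receptors held the largest share of genes free of overlap in the lower direction among these lists, though other lists had a lower median or fewer positive differences. In 7 of 12 tested genes, or 58.3%, the olanzapine pools lay below all control pools, and in 1 they lay above, against backgrounds of 11.0% and 13.3%. In edgeR 0 of the 12 were called, with 1 higher and 7 lower at an unadjusted p under 0.05, against backgrounds of 9.19% and 8.4%. Itgb1, the beta chain shared by the collagen-binding integrins and the highest of the list in mean FPKM, held 2343, 2610 and 2695 normalized counts in control pools and 2186, 2239 and 2156 in olanzapine pools (log2 difference -0.22, SE 0.073, edgeR adjusted p = 0.182). Gp6, the platelet collagen receptor, was listed at 0 in every pool. Of 9 tested genes for breakdown and its inhibitors, 8 had negative differences. Timp2, an inhibitor of matrix metalloproteinases, held 26176, 23937 and 24680 against 17271, 20669 and 20372 (log2 difference -0.36, SE 0.091, edgeR adjusted p = 0.0956), and the collagenase gene Mmp1a was listed at 0. Of 22 matrix partners, 20 had negative differences with a median of -0.27. Sparc, a collagen-binding matrix protein, was their highest gene in mean FPKM and its groups overlapped, at 30274, 24968 and 30975 against 18623, 29644 and 29041 (log2 difference -0.16, SE 0.18, edgeR adjusted p = 0.701).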

How the data were processed

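Lateral septum RNA from 3 control and 3 olanzapine pools was sequenced as paired reads. Per the labels and the study's methods, the authors trimmed reads with fastp, aligned them with HISAT2 to mm10 and deposited HTSeq counts, with no normalization; tool versions and the strand setting are not given in the sources used here. The authors also deposited FPKM for the same libraries (fragments scaled for gene length and depth), used here for levels between genes. No column of per-sample values was left unused.

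The group comparison was fitted in edgeR 4.0.16 (R 4.3.3) on TMM-scaled counts, with group as its single term, over the 17255 genes that passed filterByExpr (minimum count 10, minimum total 15). P-values came from the quasi-likelihood F test with Benjamini-Hochberg adjustment over all of them; a call is an adjusted p under 0.05, and the stricter call adds a log2 fold change above 1. The standard error is the log2 fold change divided by the square root of F. A normalized count is the count scaled to the mean TMM library size. The fit was tested on simulated data. Alternatives were DESeq2 1.42.0, other scalings and filters, limma 3.58.1 on log2(FPKM + 1) and log2(FPKM + 0.1), a replicate block and leaving out pools. GENCODE M21 gave gene structure.

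The collagen genes and all lists were chosen with earlier results of these data known. Values in every pool are given for genes called, for the highest gene of each class, for genes free of overlap and for the chain pairs Col1a1 and Col1a2, Col4a1 and Col4a2, and Col6a1 and Col6a2; other genes named with values, the collagens of the pool-order sets among them, were chosen after their values were seen.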

Additional observations from a re-analysis of the deposited data

How the results depend on the processing

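Counts of called collagens depended on the tool and on single pools. The number called higher, 3 in edgeR, was 9 with DESeq2, 0 with limma on log2(FPKM + 1) without a filter and 0 without control pool 3 and olanzapine pool 2 together, a choice made after seeing the data. It ran from 0 to 3 when 1 pool was left out, with 0 without olanzapine pool 3 1 without control pool 2, which was Col6a1, and 1 without control pool 1 or 3 or olanzapine pool 2, which was Col11a2. The number called lower was 1 with DESeq2. The number called higher and over 2-fold was 4 with DESeq2, 2 with no count filter, 0 with limma in all 3 forms, 0 without both pools together and 0 to 1 with 1 pool left out. Called partner genes were 7 with DESeq2, 1 with upper-quartile scaling, 1 with total counts only, 1 at a mean count of at least 50, 1 with limma at either pseudocount and 0 to 2 with 1 pool left out. The causes were not tested, though every fit with a pool left out has fewer samples.

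Replicate numbers did not pair the pools (correlations of same-numbered deviations -0.0026, 0.062 and -0.25). With a replicate block 0 collagens were called higher, 0 of them over 2-fold, and calls over all genes were 140 of 17255. Among the 21 collagens that the rule for values in every pool selects, 4 changed sign in some alternative and were called in none; genes of the choroid plexus order outside that rule, such as Col8a1, changed sign as well. With 1 pool left out, Col1a1 ran from -0.71 to 0.040, Col4a1 from -0.078 to 0.24, Col8a2 from -1.32 to 0.063 and Col9a3 from -0.53 to 0.47. Col9a3 was also 0.019 with the replicate block, 0.010 with limma on log2(FPKM + 1) with and without a filter and 0.017 on log2(FPKM + 0.1). The count of genes free of overlap, 13, was 11 to 19 in all alternatives, up to 3 of them in the lower direction. The share over all genes moved with it: with 1 pool left out it was 34.9% to 44.2% of collagens and 32.2% to 37.4% of all genes, and the collagen share was no higher than that of all genes without olanzapine pool 1 (37.2% and 37.4%) or without control pool 3 and olanzapine pool 2 together (45.2% and 45.6%). The median difference stayed positive, from 0.045 to 0.36.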
